A study of Mus musculus with 12 samples.

Results

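Sftpa1, Sftpb, Sftpc and Sftpd encode the surfactant proteins of the lung, and Abca3, Lamp3, Napsa and Slc34a2 encode proteins of the lamellar body and of the cell that makes it. These 8 genes were taken by symbol from the gene tables of 12 mouse lung libraries, which together listed 20774 genes. All 8 were among the 15921 genes that passed the filter on low counts, and each was abundant in every library, from 4532 counts of Napsa in the lowest library to 365960 counts of Sftpc in the highest. The mice were wild type C57BL/6J with an age label of 8 weeks, and the RNA came from homogenized whole lung. Treated animals had received paraquat in saline once into the trachea (PQ), control animals saline, and lungs were labelled 1 week (1w) or 4 weeks (4w), which gave control 1w, PQ 1w, control 4w and PQ 4w with 3 libraries each. Paraquat is a redox-cycling herbicide that injures the lung and is used to model fibrosis. Nothing in the labels says whether the 3 libraries of a group came from separate animals, so the p-values below measure only the spread between these samples.

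Pulmonary surfactant is a film of phospholipid and protein that lowers surface tension in the alveolus. Alveolar type 2 cells make it, store it in lamellar bodies and secrete it. Surfactant proteins B and C are small hydrophobic proteins, cut from larger precursors, that spread the lipid film, whereas surfactant proteins A and D are soluble collectins that bind microbes and regulate surfactant uptake. ABCA3 pumps phospholipid into the lamellar body, LAMP3 (DC-LAMP) is a membrane protein of that organelle, napsin A is an aspartic protease that takes part in cutting the surfactant protein B precursor, and SLC34A2 (NaPi-IIb) takes up phosphate at the apical membrane. Sftpd is also transcribed in airway epithelium, and Lamp3 in mature dendritic cells. In lung homogenate, fewer type 2 cells and less RNA per cell cannot be told apart.

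By coordinates of the mouse GRCm38 build, Sftpa1 (gene ID 20387) lay at chr14:41131788-41136373 and Sftpd (20390) at chr14:41172212-41185198, within the same collectin cluster. Sftpc (20389) lay at chr14:70520941-70524081 and Sftpb (20388) at chr6:72304610-72314373. Abca3 (27410) was at chr17:24351921-24410204, Lamp3 (239739) at chr16:19653381-19706365, Napsa (16541) at chr7:44572445-44586846 and Slc34a2 (20531) at chr5:53049353-53071664. RefSeq promoter sequences of GRCm38.p6 matched 5 of the 8, namely Sftpa1, Sftpb, Abca3, Lamp3 and Slc34a2. All 5 had lower transcript levels in PQ 1w lungs. The 250 bases before the start are shown for the 3 whose windows held a match to the strings named below. These are 2 of surfactant proteins and 1 of the lamellar body, each read 5' to 3' on the gene's own strand. They come from chr14:41131538-41131787 on the plus strand for Sftpa1, chr6:72304360-72304609 on the plus strand for Sftpb and chr16:19706366-19706615 on the minus strand for Lamp3. Capitals mark matches, on either strand, to CTCAAG and GCNCTNNAG, which resemble sites of NKX2-1, the homeodomain factor of lung epithelium, or to TGTTTNC, which resembles sites of forkhead factors such as FOXA1 and FOXA2.
Sftpa1: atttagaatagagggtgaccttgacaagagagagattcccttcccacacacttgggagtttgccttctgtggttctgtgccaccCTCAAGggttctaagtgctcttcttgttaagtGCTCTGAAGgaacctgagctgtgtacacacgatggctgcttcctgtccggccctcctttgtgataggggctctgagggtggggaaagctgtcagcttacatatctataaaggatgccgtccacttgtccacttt
Sftpb: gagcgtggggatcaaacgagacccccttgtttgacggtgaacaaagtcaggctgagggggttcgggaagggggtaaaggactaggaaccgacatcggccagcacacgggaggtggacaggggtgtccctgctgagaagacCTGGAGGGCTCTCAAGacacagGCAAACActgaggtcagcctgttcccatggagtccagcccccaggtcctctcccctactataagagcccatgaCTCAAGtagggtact
Lamp3: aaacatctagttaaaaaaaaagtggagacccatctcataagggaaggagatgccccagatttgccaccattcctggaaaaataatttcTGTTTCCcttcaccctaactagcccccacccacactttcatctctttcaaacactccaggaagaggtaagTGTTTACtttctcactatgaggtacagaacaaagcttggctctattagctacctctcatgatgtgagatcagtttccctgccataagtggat
Counted from the start site, CTCAAG stood at -100 to -95 and at -15 to -10 in Sftpb, and at -166 to -161 in Sftpa1. GCNCTNNAG stood at -110 to -102 and -103 to -95 in Sftpb, where it overlapped CTCAAG, and at -134 to -126 in Sftpa1. TGTTTNC stood at -88 to -82 in Sftpb and at -162 to -156 and -92 to -86 in Lamp3. The windows of Abca3 and Slc34a2 held none of the 3 strings, and both genes were also lower in PQ 1w lungs. Of 32851 mouse promoter windows of the same length, 13.3% held CTCAAG, 14.2% GCNCTNNAG and 17.8% TGTTTNC, so these matches are common and are given as a description only.

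Library totals were 17220978 to 18559809 expected counts. Within groups, pairs of libraries differed with a chi-square per degree of freedom of 7.12 to 15.4, except for the pairs that held PQ 4w replicate 3, at 30.8 and 32.9, and fitted effects and counts at 4w are therefore given with and without that library. Levels below are counts scaled to a library total of 1000000 (CPM). Effects are log2 ratios from edgeR's quasi-likelihood fit of all 12 libraries with TMM scaling. TMM factors of PQ 4w libraries were 1.019 to 1.057 against 0.9736 to 1.009 elsewhere, so CPM ratios at 4w ran slightly above the fitted ones. Adjusted p is Benjamini-Hochberg over the 15921 genes, and "fell" or "rose" is used where it was under 0.05.

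One week after paraquat, 6 of the 8 genes fell, 0 rose and 2 did not pass, and the size of the change differed widely among them. Sftpa1 and Sftpc fell most, Lamp3 followed, Slc34a2 and Abca3 fell less, Sftpb fell least, and Sftpd and Napsa did not pass. Of all genes tested, 48.8% were called in this comparison, 22.9% lower and 25.9% higher. The values of 6 members lay wholly below those of the controls, as did those of 27.1% of all genes tested. The median log2 effect of the 8 was -0.502, against 0.00474 over all genes tested.

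Sftpc, the most abundant of the set, stood at 15833, 20254 and 15594 CPM in control 1w and at 8821, 9966 and 9164 CPM in PQ 1w. All 3 treated libraries were far below every control, and the ratio was 0.536 (log2 effect -0.90 ± 0.12, approximate SE; edgeR adjusted p = 5.4e-05). Sftpa1, the collectin surfactant protein A, had 3283, 3767 and 3306 CPM in control 1w and 1809, 1798 and 1490 CPM in PQ 1w. Its groups did not overlap either, and its ratio of 0.489 was the lowest of the 8 (log2 effect -1.03 ± 0.098; edgeR adjusted p = 5.21e-06). Sftpb, without which the lung cannot form a working film, had 3871, 4665 and 3839 CPM in control 1w and 3598, 3522 and 3175 CPM in PQ 1w. The treated values lay just below the controls, and the ratio was 0.826 (log2 effect -0.28 ± 0.10; edgeR adjusted p = 0.0436). That call was lost in 13 of 20 alternatives, with adjusted p from 0.0127 to 0.201 over the 20. Among these were the fits without PQ 1w replicate 2 or 3, PQ 4w replicate 2 or 3, control 1w replicate 1 or 2, and control 4w replicate 1 or 3. Without control 1w replicate 2, the highest of the controls, the effect was -0.169 (edgeR adjusted p = 0.201).

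Sftpd, the collectin surfactant protein D, differed from its neighbour in the cluster. Control 1w libraries had 752, 931 and 747 CPM of Sftpd, and PQ 1w libraries had 845, 778 and 746 CPM. The groups overlapped, and the effect did not pass (ratio 0.967, log2 effect -0.048 ± 0.094; edgeR adjusted p = 0.697).

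Of the lamellar body genes, Lamp3 had 498, 513 and 462 CPM in control 1w and 287, 313 and 308 CPM in PQ 1w. The treated libraries all lay below the controls, at 0.612 times their level (log2 effect -0.71 ± 0.085; edgeR adjusted p = 3.2e-05). Slc34a2, the phosphate transporter, had 1920, 2025 and 2096 CPM in control 1w and 1392, 1509 and 1346 CPM in PQ 1w, a ratio of 0.698 (edgeR adjusted p = 0.000623). Abca3, the lipid pump, had 516, 525 and 592 CPM in control 1w and 402, 421 and 351 CPM in PQ 1w. Here too the groups did not overlap, and the ratio was 0.714 (log2 effect -0.49 ± 0.099; edgeR adjusted p = 0.00159). Napsa, the protease, had 337, 398 and 380 CPM in control 1w and 376, 411 and 365 CPM in PQ 1w. Its treated and control values were interleaved, with a ratio of 1.03 (log2 effect 0.036 ± 0.091; edgeR adjusted p = 0.766). The falls of Sftpa1, Sftpc, Lamp3, Slc34a2 and Abca3 were called in all 20 alternatives. Those fits included every one that left out a library.

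**Figure D1:**
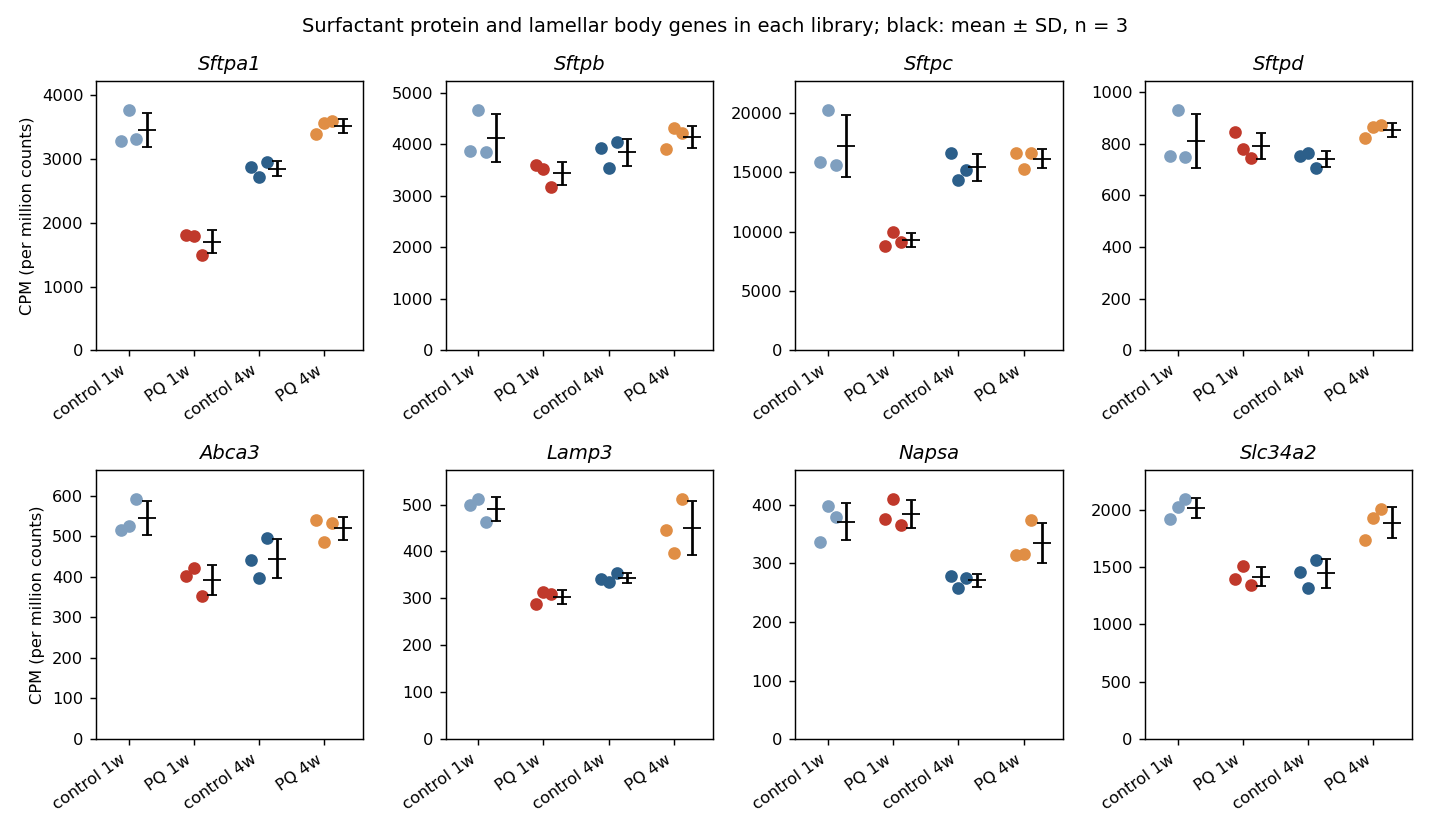
Level of each of the 8 genes in each library, in CPM, with the 3 libraries of a group as points and the mean ± SD in black. In the Sftpa1, Sftpc, Lamp3, Slc34a2 and Abca3 panels the PQ 1w points lie below all control 1w points, whereas in the Sftpd and Napsa panels they overlap.

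At 4w the levels in treated lungs were at or above those of the controls of that time. Lamp3 and Slc34a2 rose, 0 members fell, and the other 6 did not pass. In this comparison 12.1% of genes tested were called, 5.75% higher and 6.39% lower. Members whose 3 treated values all lay above the controls numbered 5, and 20.9% of all genes tested did so. The median log2 effect of the 8 was 0.19, against 0.00435 over all genes tested.

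Lamp3 had 341, 334 and 355 CPM in control 4w and 445, 396 and 511 CPM in PQ 4w. The treated libraries lay above the controls, with the highest value in replicate 3, and the ratio was 1.25 (log2 effect 0.32 ± 0.085; edgeR adjusted p = 0.0302). Slc34a2 had 1459, 1312 and 1561 CPM in control 4w and 1734, 1924 and 2003 CPM in PQ 4w. Its groups did not overlap, and the ratio was 1.24 (log2 effect 0.31 ± 0.092; edgeR adjusted p = 0.0455). Neither call held without PQ 4w replicate 3, where Lamp3 was at 0.219 (edgeR adjusted p = 0.0789) and Slc34a2 at 0.27 (edgeR adjusted p = 0.105). Lamp3 also lost its call without PQ 4w replicate 1 or any library of control 4w, and Slc34a2 without any library other than PQ 4w replicate 1 and control 4w replicate 3.

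Sftpc, at 0.536 times control at 1w, had 16660, 14390 and 15200 CPM in control 4w and 16587, 15263 and 16623 CPM in PQ 4w. These groups overlapped almost entirely, with a ratio of 0.996 (log2 effect -0.006 ± 0.11; edgeR adjusted p = 0.981). The sign of that near-zero effect turned in 12 of 20 alternatives. Sftpa1 had 2878, 2714 and 2953 CPM in control 4w and 3383, 3564 and 3587 CPM in PQ 4w. Every treated value lay above the controls, yet the effect did not pass (ratio 1.17, log2 effect 0.23 ± 0.097; edgeR adjusted p = 0.145).

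For Sftpb the range was 3541 to 4047 CPM in control 4w and 3906 to 4312 CPM in PQ 4w (ratio 1.03; edgeR adjusted p = 0.846). Sftpd had 704 to 764 CPM in control 4w and 824 to 872 CPM in PQ 4w (ratio 1.10; edgeR adjusted p = 0.385), and Napsa had 259 to 279 CPM and 315 to 374 CPM (ratio 1.17; edgeR adjusted p = 0.118). Treated and control ranges of Sftpd and Napsa did not overlap, whereas those of Sftpb did. Abca3, with 398 to 494 CPM in control 4w and 486 to 539 CPM in PQ 4w, overlapped narrowly (ratio 1.11; edgeR adjusted p = 0.359). Without PQ 4w replicate 3 the log2 effect of Napsa went from 0.232 to 0.146 (edgeR adjusted p = 0.313). In the same fit Sftpa1 was at 0.215, Abca3 at 0.133, Sftpd at 0.121, Sftpb at 0.0271 and Sftpc at -0.0263, and none of these 5 passed (edgeR adjusted p = 0.223 to 0.920).

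The difference between the paraquat effects at the 2 times was tested directly, as the effect at 4w minus the effect at 1w. It was above 0 and passed for 5 of the 8 genes and did not pass for 3. Over all genes tested, 32% were called for a difference and 14.1% for a higher effect at 4w. Sftpa1 had the largest difference (log2 1.26 ± 0.14; edgeR adjusted p = 9.01e-05), then Lamp3 (1.03 ± 0.12; edgeR adjusted p = 0.000133). Sftpc differed by 0.89 ± 0.16 (edgeR adjusted p = 0.00162), Slc34a2 by 0.83 ± 0.13 (edgeR adjusted p = 0.000689) and Abca3 by 0.64 ± 0.14 (edgeR adjusted p = 0.00506). Sftpb (0.32; edgeR adjusted p = 0.122), Napsa (0.20; edgeR adjusted p = 0.266) and Sftpd (0.18; edgeR adjusted p = 0.314) did not pass. Each difference is the change in PQ lungs from 1w to 4w minus that in controls. For Lamp3 the 1.028 was made up of a rise of 0.5027 in PQ lungs and a control change of -0.5257, and for Slc34a2 the 0.8326 of 0.3453 and -0.4873. For Sftpa1 these changes were 0.977 and -0.2862, for Sftpc 0.7238 and -0.1691, and for Abca3 0.334 and -0.301. Without PQ 4w replicate 3 the count of members with a called difference was again 5.

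**Figure D2:**
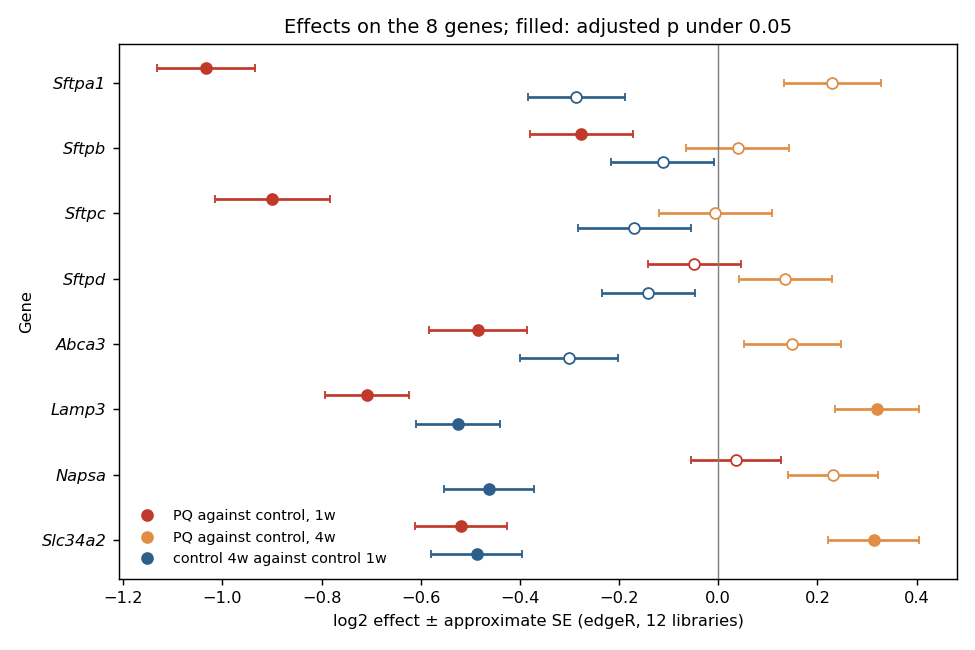
Log2 effect of each of the 8 genes with its approximate standard error, from the fit of 12 libraries, for PQ against control at 1w (red), PQ against control at 4w (orange) and control 4w against control 1w (blue). Filled points have an adjusted p under 0.05, and the red points run from -1.03 for Sftpa1 to 0.036 for Napsa, whereas all orange points lie between -0.00602 and 0.32.

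Among treated lungs alone, 5 members were higher at 4w than at 1w, Napsa was lower and 2 did not pass. Of all genes tested, 54.6% were called in this comparison, 26.7% higher and 27.8% lower. Sftpa1 at 4w was 1.97 times its level at 1w (edgeR adjusted p = 8.18e-06), Sftpc 1.65 times (edgeR adjusted p = 0.000238) and Lamp3 1.42 times (edgeR adjusted p = 0.000375). Slc34a2 was at 1.27 times (edgeR adjusted p = 0.00731) and Abca3 at 1.26 times (edgeR adjusted p = 0.013). Abca3 lost its call without PQ 1w replicate 3 (edgeR adjusted p = 0.0636). The values of 6 members at 4w lay wholly above those at 1w, including Sftpb, which did not pass (edgeR adjusted p = 0.116), and 34% of genes tested did so. Napsa was at 0.831 times its 1w level (edgeR adjusted p = 0.0252), though a 4w value of 374 CPM lay within the 1w range. Without PQ 4w replicate 3, 6 members were again called. The Napsa call was lost in 8 of 20 alternatives, among them fits without PQ 1w replicate 1, PQ 1w replicate 2, PQ 4w replicate 1 or PQ 4w replicate 2.

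Control lungs also differed between the times, and these controls enter the comparisons above. Lamp3 fell from a mean of 491 to 343 CPM (ratio 0.695; edgeR adjusted p = 0.0111), Slc34a2 from 2013 to 1444 CPM (ratio 0.713; edgeR adjusted p = 0.019) and Napsa from 372 to 271 CPM (ratio 0.725; edgeR adjusted p = 0.02). The other 5 did not pass. Of all genes tested, 10.1% were called between the controls and 4.2% were called lower. Control 4w values lay wholly below control 1w for 5 members, as for 14.2% of genes tested, with Sftpa1 and Abca3 beside the 3 that fell. Without control 1w replicate 3, and likewise without control 4w replicate 2, only Lamp3 of the 3 passed. Leaving out control 4w replicate 3 ended the Napsa call (edgeR adjusted p = 0.0525). The order of the 4 group means therefore differed among members. For Sftpa1 it ran PQ 4w, control 1w, control 4w, PQ 1w from high to low, with overlap between the first pair only. For Lamp3 it ran control 1w, PQ 4w, control 4w, PQ 1w, again with overlap between the first pair only. Napsa ran PQ 1w, control 1w, PQ 4w, control 4w, and only control 4w stood apart from the group next to it.

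Each gene can also be set against Sftpc in the same library, which removes the scaling of libraries from the comparison. FPKM, which divide by transcript length, were used here. In control 1w the order of mean FPKM was Sftpc 22042, Sftpb 2673, Sftpa1 1238, Sftpd 617, Slc34a2 477, Napsa 253, Lamp3 146 and Abca3 83.1. That order by mean FPKM was the same in all 4 groups, although in PQ 1w Sftpa1, at 535 to 649 FPKM, overlapped Sftpd, at 568 to 644 FPKM. Among all genes, Sftpc ranked 2 by mean FPKM in control 1w, control 4w and PQ 4w and ranked 1 in PQ 1w, where its own level was lowest. Sftpa1 ranked 19 in control 1w, 90 in PQ 1w, 27 in control 4w and 19 in PQ 4w.

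Per 100 FPKM of Sftpc, Napsa stood at 1.13, 1.04 and 1.30 in control 1w and at 2.27, 2.19 and 2.12 in PQ 1w. The treated lungs thus held 1.90 times as much Napsa transcript per Sftpc transcript. Sftpd per 100 FPKM of Sftpc was 2.83, 2.74 and 2.85 in control 1w and 5.70, 4.65 and 4.84 in PQ 1w, a ratio of 1.80. Sftpb was 12.4, 11.7 and 12.5 in control 1w and 20.7, 17.9 and 17.6 in PQ 1w, a ratio of 1.53. In these 3 genes every treated library exceeded every control, and Abca3 (1.32 times) and Slc34a2 (1.29 times) did so too. The fall of Sftpc itself enters each ratio, and 80.2% of the other genes tested had ratios to Sftpc that lay wholly above the controls at 1w, so the count of 5 of 7 is given as a description. For each of the 5 the exact two-sided permutation p was 0.1, the smallest that 3 against 3 allows, and 0.156 after Benjamini-Hochberg adjustment over 14 such ratios. Sftpa1 (0.903 times) and Lamp3 (1.13 times) overlapped, each with an exact permutation p of 0.2. At 4w the ratios to Sftpc were 1.03 to 1.25 times those of the controls. Groups did not overlap at 4w for Sftpa1 (1.18), Lamp3 (1.24), Napsa (1.17) and Slc34a2 (1.25), each with an exact permutation p of 0.1, and 11.1% of the other genes tested were wholly higher in this way.

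**Figure D3:**
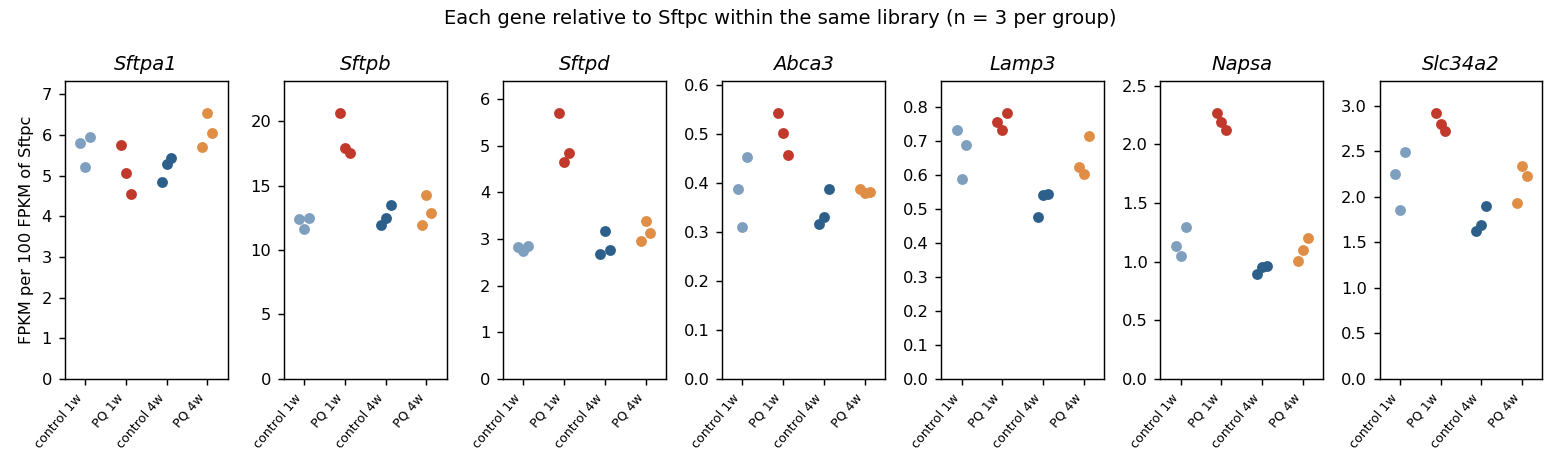
FPKM of 7 genes per 100 FPKM of Sftpc in the same library, with the 3 libraries of each group as points. The PQ 1w points of Sftpb, Sftpd and Napsa lie well above the other 9, whereas those of Sftpa1 and Lamp3 overlap control 1w.

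Together, the 4 surfactant protein genes held 2.37%, 2.96% and 2.35% of all counts in control 1w and 1.51%, 1.61% and 1.46% in PQ 1w. At 4w they held 2.42%, 2.14% and 2.29% in control and 2.47%, 2.40% and 2.53% in PQ lungs. PQ 1w was thus the low group, and the 4w groups overlapped. Within the summed FPKM of the 8 genes, the share of Sftpc was 80.0% ± 0.93 (SD, n = 3) in control 1w and 74.0% ± 1.6 in PQ 1w, and that of Sftpb 9.73% ± 0.24 and 13.8% ± 0.94. The transcript lengths listed per library, which shift when reads are assigned to other isoforms, were constant for 6 members and ranged from 1550.1 to 1553.2 bases for Sftpb and from 6454.7 to 6494.97 bases for Abca3.

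Other genes of the surfactant pathway did not move as a block. List counts here and below stand beside the shares called over all genes tested, 48.8% at 1w and 12.1% at 4w. Among 12 genes of surfactant protein processing and quality control, 4 rose, 4 fell and 4 did not pass at 1w (median log2 effect -0.0434). Ctsh, the cathepsin that cuts surfactant protein precursors beside napsin A, rose from 339 to 849 CPM, 2.49 times (edgeR adjusted p = 5.4e-06). P4hb, a protein disulfide isomerase, rose 1.58 times. Which cells these rises came from cannot be read from whole lung. Dnajb9, a chaperone of the endoplasmic reticulum, fell to 0.654 times. At 4w 0 rose and 1 fell, namely Emc3 at 0.863 times (edgeR adjusted p = 0.0437), a subunit of the membrane protein insertion complex. Ctsh was at 1.30 times and did not pass at 4w (edgeR adjusted p = 0.0662). Without PQ 4w replicate 3 the 4w counts were again 0 higher and 1 lower. The list had 0 called at 4w without PQ 1w replicate 1, PQ 4w replicate 1 or PQ 4w replicate 2. The same held without any 1 library of control 1w or control 4w, and without the filter on low counts.

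Among 15 genes of lamellar body biogenesis and exocytosis, 2 rose, 4 fell and 9 did not pass at 1w. Adgrf5, a receptor that restrains the surfactant pool and is also abundant in endothelium, fell from 1864 to 915 CPM, to 0.488 times (edgeR adjusted p = 1.98e-05). Vamp2, a vesicle fusion protein, fell to 0.726 times, and P2ry2, the ATP receptor that triggers secretion, rose 1.74 times. P2ry2 rose at 4w too, 1.45 times (edgeR adjusted p = 0.018), as did Ap3b1, an adaptor subunit, at 1.16 times (edgeR adjusted p = 0.0372). The other 13 did not pass at 4w, and without PQ 4w replicate 3 only 1 of the 15 did.

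Among 16 genes of phospholipid synthesis, 0 rose, 5 fell and 11 did not pass at 1w, with 3 called when PQ 1w replicate 3 or control 1w replicate 1 was left out. Chka, choline kinase, fell to 0.582 times (edgeR adjusted p = 1.88e-06) and Cept1, which joins choline or ethanolamine to diacylglycerol, to 0.774 times. Lpcat1, which remodels surfactant phosphatidylcholine, had means of 144 and 150 CPM and did not pass (edgeR adjusted p = 0.718). At 4w Fasn, fatty acid synthase, rose 1.43 times and Chka fell to 0.829 times, while 14 did not pass. Fasn also fell between the controls, from a mean of 624.5 CPM at 1w to 395 CPM at 4w (edgeR adjusted p = 0.0242). Its means in PQ lungs were 614.6 CPM at 1w and 595.1 CPM at 4w. Without PQ 4w replicate 3 the list again had 1 higher and 1 lower at 4w. Without PQ 4w replicate 1 or control 4w replicate 1 the list had 0 called at 4w.

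Genes of surfactant turnover and clearance, many of them expressed in macrophages, rose more often than they fell, with 6 of 10 higher, 2 lower and 2 not passing at 1w (median log2 effect 0.462, and 5 called without PQ 1w replicate 2). Lipa, the lysosomal acid lipase, rose 1.89 times and Abca1, a lipid exporter, 1.89 times. Prdx6, which has phospholipase activity in lamellar bodies and lysosomes, fell to 0.592 times. All 3 kept those directions at 4w, with Lipa at 1.35 times, Abca1 at 1.56 times and Prdx6 at 0.740 times, each called. Without PQ 4w replicate 3 the list had 2 higher and 2 lower at 4w.

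Of 10 regulators of surfactant gene transcription, 0 rose, 7 fell and 3 did not pass at 1w (median log2 effect -0.326). Nkx2-1 went from a mean of 230 to 167 CPM, to 0.721 times (edgeR adjusted p = 0.000165), and Foxa1 from 48.3 to 22.3 CPM, to 0.458 times (edgeR adjusted p = 0.000638). The count called was 3 when PQ 1w replicate 1, PQ 1w replicate 3 or control 1w replicate 2 was left out. At 4w 0 of 10 passed in edgeR, 2 had an unadjusted p under 0.05, and DESeq2 and limma called 1 each. Without PQ 4w replicate 3 edgeR again called 0. Etv5, a factor that maintains type 2 cells, was at 1.26 times (edgeR adjusted p = 0.0761). Of 5 other collectins 3 could be tested, of which Colec12 rose 1.29 times at 1w and Mbl1, at means of 1.68 and 0.847 CPM, fell to 0.502 times. Without control 1w replicate 2 Mbl1 no longer passed (edgeR adjusted p = 0.055). Neither gene passed at 4w, and without PQ 4w replicate 3 these collectins had 0 higher and 0 lower.

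**Figure D4:**
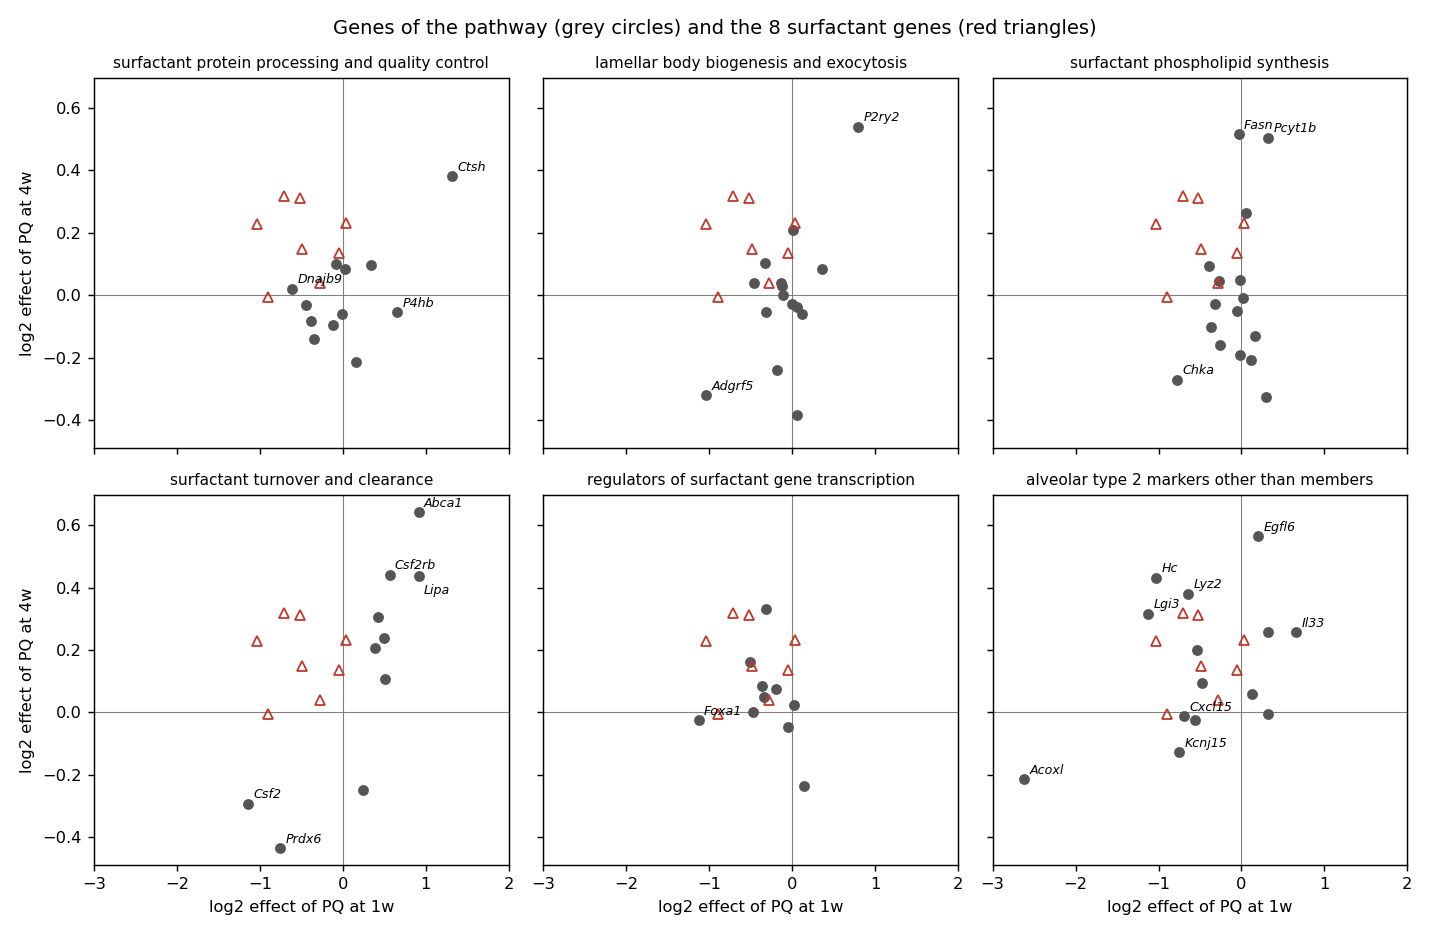
Log2 effect of PQ at 1w (horizontal) and at 4w (vertical) for the genes of 5 pathway lists and of the type 2 cell markers, as grey circles, with the 8 surfactant genes repeated in each panel as red triangles. Ctsh, Lipa and Abca1 lie on the right with P2ry2, and Foxa1, Adgrf5 and Chka on the left.

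Markers of the cell types in lung moved beside these genes, and their part in the results was not tested. Which cells the transcripts of a marker came from cannot be read from whole lung. Of 14 type 2 markers other than the 8 genes, 2 rose, 9 fell and 3 did not pass at 1w, with a median log2 effect of -0.547. Their summed level was 8470 to 9352 CPM in control 1w, 5668 to 6309 in PQ 1w, 6809 to 7126 in control 4w and 7907 to 9597 in PQ 4w. Acoxl fell to 0.162 times, Kcnj15 to 0.596 times and Cxcl15, lungkine, to 0.621 times. At 4w Egfl6 rose 1.48 times, Lyz2 1.30 times and Hc 1.35 times, and the other 11 did not pass. Without PQ 4w replicate 3 the type 2 marker count at 4w was 3 higher and 1 lower. Between the controls, 0 of the 14 were higher at 4w and 7 lower, against 4.2% of all genes tested called lower. Egfl6 (edgeR adjusted p = 0.0104), Hc (0.0193) and Lyz2 (0.0305) were among the 7. Egfl6 had control means of 76.3 CPM at 1w and 47.15 CPM at 4w, and 73.45 CPM in PQ 4w. For Hc these means were 757, 495 and 704 CPM. Lyz2 is also a macrophage gene, and it was the largest part of the type 2 sums. Its means were 4846, 3135, 3779 and 5174 CPM in control 1w, PQ 1w, control 4w and PQ 4w. The mean sums were 8910, 5933, 6969 and 8934 CPM in that order.

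Of 10 type 1 markers 1 rose and 4 fell at 1w (8 called without PQ 4w replicate 1), and summed levels were 8361 to 9204 CPM in control 1w and 6450 to 6908 in PQ 1w. Ager, a receptor of type 1 cells, was at 0.770 times (edgeR adjusted p = 0.0926). The transitional epithelium list, of genes seen as type 2 cells turn into type 1 cells, had 11 of 12 higher and 1 lower, with sums of 1425 to 1660 CPM in control 1w and 2351 to 2772 in PQ 1w. Cldn4, a tight junction protein, rose 10.8 times and Lgals3, galectin 3, 2.24 times. The 1 lower gene was Cdkn1a, at 0.643 times (edgeR adjusted p = 0.0069), and it was at 0.377 times at 4w (edgeR adjusted p = 0.000919).

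Airway club markers had 5 of 10 lower and 0 higher at 1w, with sums of 23150 to 31700 CPM in control 1w and 5323 to 6055 in PQ 1w. Scgb1a1, club cell secretory protein, fell to 0.161 times. It made up most of the club sums, with means of 24410 CPM in control 1w and 3965 CPM in PQ 1w. Scgb3a1, Bpifa1, Bpifb1 and Muc5b had higher means in PQ 1w, and none of them passed (edgeR adjusted p = 0.115 to 0.948). Ciliated markers had 2 of 10 lower, with sums of 468 to 664 CPM and 267 to 323 CPM. That count was 5 without PQ 4w replicate 3 and 1 without PQ 1w replicate 1 or control 1w replicate 1. Markers shared by epithelia had 1 higher, 3 lower and 6 not passing. The 4 called became 8 without PQ 4w replicate 3 and 2 without PQ 1w replicate 3 or control 1w replicate 1. Their sums overlapped, at 923 to 1045 CPM in control 1w and 840 to 983 in PQ 1w, and Epcam was at 0.981 times (edgeR adjusted p = 0.872).

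Outside the epithelium, 8 of 10 endothelial markers fell at 1w, with sums of 4613 to 5195 CPM in control 1w and 2933 to 3452 in PQ 1w. Mesenchymal markers had 6 of 10 higher and 2 lower, with sums of 3940 to 4390 CPM in control 1w and 15120 to 16900 in PQ 1w. Fn1 (mean 611 to 4423 CPM) and Col1a1 (624 to 3992 CPM) were the largest parts of the PQ 1w sum, whereas Tcf21 fell to 0.694 times. Alveolar macrophage markers had 4 higher and 2 lower of 10, with sums of 639 to 668 CPM and 1612 to 2172 CPM. Chil3, with means of 291 and 1292 CPM, was the largest part of these sums. Leukocyte markers had 1 higher and 5 lower, with overlapping sums of 793 to 1079 CPM and 864 to 926 CPM. The 1 higher was Cd68, at 3.66 times (edgeR adjusted p = 2.1e-08).

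At 4w the sums of the type 1 markers (7431 to 8112 CPM in control, 4061 to 6668 in PQ; 3 of 10 lower) and of the endothelial markers (5085 to 5369 CPM and 3239 to 4055; 9 lower, 1 higher) lay wholly below the controls. Those of the mesenchymal markers (2949 to 3172 CPM in control, 3564 to 3872 in PQ) and of the type 2 markers lay wholly above them. Sums of the other cell lists overlapped. A sum follows its most abundant genes, such as Lyz2 in the type 2 list. Among mesenchymal markers Fn1 went from a mean of 370 to 680 CPM, whereas Tcf21 went from 86.1 to 62.8 CPM. Transitional markers had 2 higher and 2 lower, club markers 1 lower, ciliated and shared epithelial markers 0 in either direction with edgeR, DESeq2 and limma (0 and 2 at an unadjusted p under 0.05), mesenchymal markers 2 higher and 1 lower, macrophage markers 1 higher and 3 lower, and leukocyte markers 1 higher and 1 lower. Without PQ 4w replicate 3 edgeR called 3 ciliated and 4 shared epithelial markers, all higher, 6 type 1 markers, all lower, and 4 transitional markers higher and 2 lower. In that fit club markers had 1 higher and 1 lower, endothelial markers 1 higher and 8 lower, macrophage markers 1 higher and 4 lower, and leukocyte markers 1 higher and 2 lower, while the mesenchymal counts were as before. Every marker of the 10 cell lists was above 0 in at least 1 library of each group.

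Across the 12 libraries the 8 genes did not share a single profile. As a description, the Pearson correlation of log2 CPM was 0.951 between Sftpa1 and Sftpc, 0.909 between Lamp3 and Slc34a2 and 0.897 between Abca3 and Slc34a2. It was -0.238 between Sftpa1 and Napsa and -0.295 between Sftpc and Napsa. All of these correlations share the same 12 libraries and their 4 groups. Of all other genes with a mean of at least 1 CPM, those most like the mean standardised profile of the 8 included Dram1 (r = 0.939), Tg (0.935), Hc (0.921), Itih1 (0.903), Dedd2 (0.902), Lyz2 (0.893) and Ociad2 (0.890). Tg, with group means of 0.811 to 1.83 CPM, and Itih1, with 1.42 to 3.37 CPM, were close to that lower limit.

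Hc, which encodes complement component 5, had means of 757, 375, 495 and 704 CPM in control 1w, PQ 1w, control 4w and PQ 4w. It was also the gene most like Lamp3 (r = 0.967). For the surfactant proteins the most similar genes were Irx2 for Sftpc (0.982), Fam117a for Sftpa1 (0.974), Sfta2, another secreted product of type 2 cells, for Sftpb (0.962), and Gas6 for Sftpd (0.859). Mfap1b was most similar to Abca3 (0.947), Ccdc186 to Slc34a2 (0.936) and Itga9 to Napsa (0.932). Each r is over 12 libraries and was not tested.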

How the data were processed

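Per the labels' protocols, the 12 lung libraries were run on a BGISEQ 500 instrument. HISAT, RSEM 1.2.12 and the build mm10 are named in the submitters' processing notes. Expected counts per gene, not scaled to depth, and FPKM values, scaled to length and library size, were made by the authors and deposited, per the file headers. The sources used here give neither strandedness nor the annotation release, nor HISAT's version.

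Groups, times and replicate numbers came from the labels. Expected counts were rounded, genes absent from a library's table were set to 0, and 27 symbols turned into dates by a spreadsheet were restored by gene ID. CPM are expected counts over the library total. edgeR 4.0.16 (R 4.3.3) fitted 4 group means with TMM scaling after filterByExpr (minimum count 10, minimum total 15), and quasi-likelihood F-tests were adjusted by Benjamini-Hochberg, called under 0.05. Standard errors are the absolute effect over the square root of F. The fit was also run on simulated data with few changed genes and no outlying library, which does not measure its error rates here. Ratios to Sftpc were compared on a log2 scale by exact permutation. Promoters came from RefSeq tables of GRCm38.p6, the assembly of mm10. Alternatives used library totals, DESeq2 1.42.0, no filter, the compared groups only, a replicate block, each library left out, and limma 3.58.1 on log2(FPKM + 1) or log2(FPKM + 0.1).

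The 8 genes, the 16 lists (173 of 174 symbols in the tables) and the tests were chosen with earlier results of these data known. All 8 genes were named. Of each list, the genes named were drawn from the 2 with the smallest p at each time, with Nkx2-1, Ctsh, Lpcat1, Scgb1a1, Epcam, Cxcl15 and Ager. Dnajb9, Hc as a type 2 marker, and Scgb3a1, Bpifa1, Bpifb1 and Muc5b were added after their values were seen. The genes most like the 8 were the 8 with the highest r, of which 1 is not reported here, and the 1 for each gene. Likeness used log2(CPM + 0.5).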

Additional observations from a re-analysis of the deposited data

Results flagged for a closer look

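For 5 genes the paraquat effect differed between the 2 times in the interaction term of edgeR's quasi-likelihood fit. Benjamini-Hochberg adjustment was over all genes tested, of which 32% were called for this difference, 14.1% with a higher effect at 4w. The log2 effect at 4w minus that at 1w was 1.263 for Sftpa1 (edgeR adjusted p = 9.01e-05), 1.028 for Lamp3 (edgeR adjusted p = 0.000133), 0.8929 for Sftpc (edgeR adjusted p = 0.00162), 0.8326 for Slc34a2 (edgeR adjusted p = 0.000689) and 0.635 for Abca3 (edgeR adjusted p = 0.00506). All 5 were lower than control at 1w. Each difference is the PQ change between the times minus the control change, and the control changes were -0.5257 of 1.028 for Lamp3 and -0.4873 of 0.8326 for Slc34a2, both called. Sftpc no longer passed with limma on log2(FPKM + 1) (adjusted p = 0.0906) or log2(FPKM + 0.1) (adjusted p = 0.0718).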

How the results depend on the processing

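Of 792 recomputed effects of the 8 genes, 716 kept their direction and their side of the threshold, 48 lost a call, 11 gained 1 and 17 turned sign without a call. At 1w the count of genes called was 6704 to 8264 without 1 library against 7772, and of the 8 genes 5 or 6 passed in every alternative. The 4w comparison was less firm, as 1932 genes called became 746 with only the compared groups and 641 to 2104 without 1 library, the low counts coming without PQ 4w replicate 1 or any 1 of control 4w. Of the 8 genes, 2 passed at 4w, but 4 with library totals, 1 without the filter, 0 with only the compared groups, and 0 to 1 without 1 library. Slc34a2 at 4w lost its call in 13 of 20 alternatives and Lamp3 in 6. Between the controls, 1609 genes called became 122 to 2570 without 1 library (fewer without PQ 1w replicate 3, control 1w replicate 1 or 3, or any 1 of control 4w, and more without PQ 4w replicate 3), and of the 8 genes 3 became 5 with DESeq2 and 1 to 3 without 1 library. The cause was not tested. List counts at 4w also shifted without 1 library: processing 0 to 1, biogenesis 0 to 2, phospholipid synthesis 0 to 2, regulators 0 to 1, type 2 markers 1 to 4, type 1 markers 1 to 6, transitional 2 to 6, club 0 to 3, ciliated 0 to 3, shared epithelial 0 to 4, endothelial 3 to 9, mesenchymal 1 to 3, macrophage 3 to 5 and leukocyte 1 to 3. At 1w the ciliated count ran from 1 to 5, shared epithelial from 2 to 8 and type 1 from 5 to 8 without 1 library, and with only the compared groups they were 4, 8 and 8.

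Signs turned only where the effect was near 0. For Sftpc at 4w the log2 effect was 0.0117 with DESeq2, 0.0677 with library totals, 0.0479 with totals that left out the 8 genes and the 20 most abundant ones, 0.0704 with limma at either pseudocount, 0.00054 without the filter and -0.0571 to 0.0721 without 1 library, among them 0.00208, 0.00213, 0.004, 0.00406 and 0.0306. Without 1 library, Napsa at 1w ranged from -0.0254 to 0.0964 (with -0.014 between), Sftpd at 1w from -0.11 to 0.074, Sftpb at 4w from -0.0196 to 0.0942 and Sftpd in PQ 4w against PQ 1w from -0.0051 to 0.101.

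Replicate numbers did not pair the libraries: of 18 same-numbered pairs between groups, 5 had a correlation of deviations over 0.1, and the range was -0.35 to 0.282. With a replicate block the genes called numbered 7636 at 1w, 1646 at 4w, 4826 for the difference, 8454 for PQ 4w against PQ 1w and 1452 between controls. With that block, of the 8 genes 5, 1, 5, 6 and 3 passed in the same order, as Sftpb at 1w (edgeR adjusted p = 0.0644) and Slc34a2 at 4w (edgeR adjusted p = 0.0658) lost their calls. No other call on the 8 genes changed under the block. Each of the 8 genes had at least 4532 counts in every library, and whether depth limited their calls was not tested.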
